A study of Homo sapiens with 2 samples.

Results

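RAC proteins are small GTPases that switch on the WAVE complex, the assembly that drives actin branching at the leading edge of a cell. The set examined here held 10 gene symbols, RAC1, RAC3, WASF1, WASF2, WASF3, CYFIP1, NCKAP1, ABI1, ABI2 and BRK1, and a probe set was a member when the platform annotation gave it 1 of these symbols. That rule found 17 probe sets for 8 of the 10 genes, among the 19775 genes on the array with at least 1 probe set annotated to that gene alone. WASF1 and ABI2 are named only. The cells were OECM1, an established head and neck cancer line, grown in RPMI with fetal bovine serum. The let-7i cells were stably transfected with pmCherry-let7i, and their controls carried the pmR-mCherry empty vector, so both groups carry a vector named for the red fluorescent protein mCherry. The labels do not say whether either line was 1 clone or a pool, nor which promoter drives let-7i. Each group had 1 array. No p-value or SD between cultures could therefore be given, and each difference is a description of these 2 arrays without a replicate check.

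GTP-bound RAC binds the CYFIP subunit of the WAVE complex, which frees the tail of the WASF subunit (also called WAVE) to activate the ARP2/3 complex. ARP2/3 then starts new actin branches, and the resulting sheet of branched actin is the lamellipodium that epithelial and carcinoma cells use to spread and migrate. The complex holds 1 member each of the WASF, CYFIP, NCKAP, ABI and BRK1 families, and loss of a subunit is known to destabilise the others at the protein level, which an array does not measure.

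The mature let-7i sequence shows which bases the vector-expressed microRNA brings to the cell. Below it stands let-7g from the same family, with the seed (bases 2 to 8, the part that pairs with target messenger RNAs) in capitals, both from RefSeq on GRCh38.p14.
hsa-let-7i-5p: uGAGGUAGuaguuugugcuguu
hsa-let-7g-5p: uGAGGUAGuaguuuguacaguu
The let-7i-5p arm lies at chr12:62603691-62603712 on the plus strand and the let-7g-5p arm at chr3:52268336-52268357 on the minus strand. Both are 22 bases long and differ at 2 positions, outside the seed, and 11 mature microRNA names in the RefSeq table carry that seed. Sites for it in the transcripts of the RAC and WAVE genes were not searched here. No probe set was annotated to MIRLET7I (0 probe sets), so the level of let-7i did not check the labels.

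The arrays held 54675 probe sets each, and the deposited values are MAS5 signals on a linear scale. A floor was set at each array's median signal, 79.5 on the let-7i array and 88.0 on the empty vector array. Log2 ratios are let-7i over empty vector, centred on the median ratio of the genes above the floor on both arrays. Their error is given as the probe SD, the spread of log2 ratios between probe sets of the same gene. It was 0.34 in the dimmest of 4 bins of signal and 0.15 in the brightest. The bins were cut to hold nearly equal numbers of probe set pairs of the same gene, not of all probe sets. The dimmest held 10708 of the 25566 probe sets measured on both arrays. The probe SD comes from the probes, and how much cultures vary is unknown. Of 11 epithelial markers with a probe set 7 were above the floor, 4 higher and 3 lower with let-7i, and the summed signal of the list was 49998 with let-7i and 50056 with the empty vector. Their log2 ratios ran from -0.42 for CDH1 (5090 on the let-7i array and 6785 on the empty vector array) to 0.69 for ITGA6 (2877 and 1780, in the same order). The squamous markers KRT5, KRT14, DSG3 and PKP1 were below it on both arrays. Of 8 fibroblast markers 3 were above the floor on at least 1 array, as were 3 of 7 leukocyte markers and 1 of 6 endothelial ones. By brightest probe set all 3 fibroblast markers were higher with let-7i, with log2 ratios from 0.26 to 0.98. These probe sets have IDs ending in _s_at or _x_at, which can match several transcripts. Without probe sets of that kind 0 fibroblast markers were above the floor. Of 7 DCN probe sets 1 was above it on both arrays, and of 5 COL1A1 ones 2 were. Of the 3 leukocyte markers 1 was higher and 2 were lower. The endothelial one, PECAM1, had a log2 ratio of 0.22, with -0.28 and -0.21 in its other measured probe sets. The summed signal of the fibroblast list was 1311 with let-7i and 904 with the empty vector, that of the leukocyte list 414 and 443, and that of the endothelial list 478 and 430. PTPRC, the pan-leukocyte surface protein, was below the floor at 58.3 and 55.8. Whether any such cells were in these cultures, and what part they might have in the ratios given here, was not tested. In RNA from whole cultures, fewer cells with a transcript and less transcript per cell cannot be told apart.

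As a group the RAC and WAVE genes differed little between let-7i and empty vector cells, about as much as genes in general. Of the 17 member probe sets 15 were above the floor on both arrays and 2 on neither, and 1 of these 15 was at least 2-fold lower with let-7i while 0 were at least 2-fold higher. Over all probe sets above the floor on at least 1 array, 2.33% were past 2-fold and 1.42% were past it in the lower direction. With each gene taken by its brightest probe set, 5 of the 8 genes were higher and 3 lower, and 0 of 8 were past 2-fold, against 2.43% of all 12284 genes. None of the 8 was past 1.5-fold (0 of 8, against 10.1% of all genes). The member with the largest ratio in size was RAC3, 1.26-fold lower. The median log2 ratio was 0.07 for the members and -0.01 for all genes, and the median absolute log2 ratio was 0.17 and 0.19. Bright genes vary less on these arrays, and 6 of the 8 members lay in the brightest bin of signal. Those 6 had a median absolute log2 ratio of 0.14, against 0.13 for all 3593 genes in that bin.

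**Figure D1:**
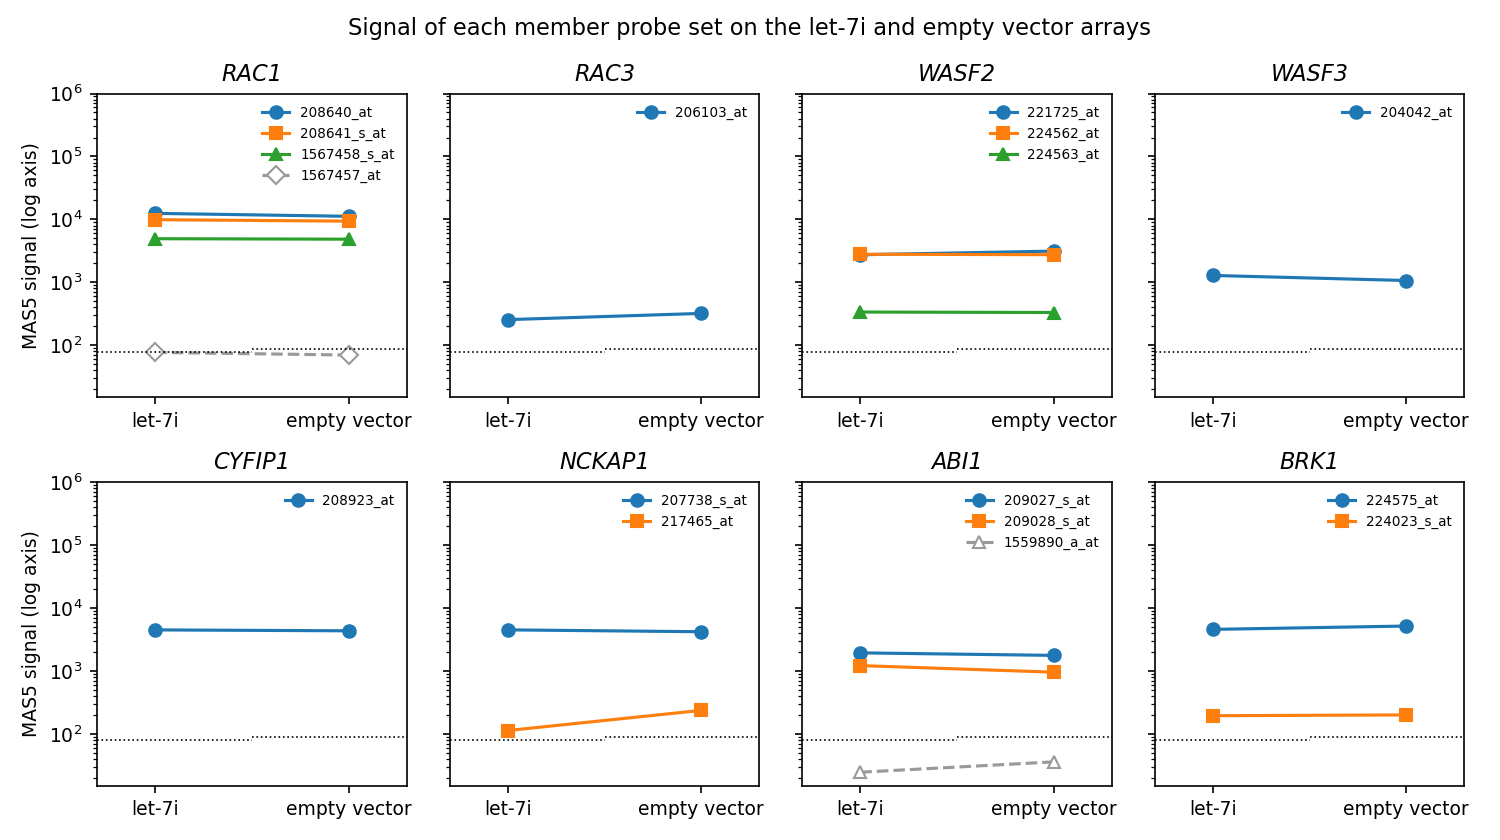
MAS5 signal (log axis) of each member probe set on the let-7i array (left point) and the empty vector array (right point), 1 panel per gene, with the floor of each array dotted and the 2 probe sets below the floor on both arrays in grey. Lines are close to level except for the NCKAP1 probe set 217465_at, with 113 on the let-7i array and 235 on the empty vector array.

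RAC1, the most broadly used RAC GTPase, had a nearly equal signal on the arrays. Probe set 208640_at gave 12468 with let-7i and 11196 with the empty vector, a log2 ratio of 0.15. Probe set 208641_s_at gave 9890 with let-7i and 9374 with the empty vector (log2 ratio 0.07), and 1567458_s_at gave 4935 and 4851 in the same order (log2 ratio 0.02). All 3 ratios were above 0 and smaller than the probe SD of 0.15 at such signals. After lowess centring and after quantile normalization the log2 ratio of 1567458_s_at was below 0, the lowest being -0.02. The fourth RAC1 probe set, 1567457_at, was below the floor at 77.1 with let-7i and 70.0 with the empty vector, and no ratio is given for it.

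RAC3, a RAC paralogue best known from neurons and from proliferating tumour cells, had 1 probe set, 206103_at. Its signal was 256 with let-7i and 321 with the empty vector, so it was the dimmer on the let-7i array. The log2 ratio of -0.33 (1.26-fold lower) was 0.99 times the probe SD at that signal, and it was negative in all 8 settings tried, from -0.34 to -0.27. The log2 ratio of RAC3 minus that of RAC1 was -0.48, beside a probe SD of 0.37 for such a difference. RAC2, the paralogue of blood cells, was not a member and had signals of 3315 with let-7i and 2862 with the empty vector in its brighter probe set (log2 ratio 0.21). Its other probe set gave 768 and 809 in the same order (-0.08), so the direction depended on the probe set.

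The WASF proteins carry the tail that activates ARP2/3. WASF2, the family member of most cell types, had 3 probe sets that did not point one way. The brightest, 221725_at, gave 2744 with let-7i and 3135 with the empty vector, a log2 ratio of -0.20 or 1.27 times the probe SD. The nearly as bright 224562_at gave 2796 with let-7i and 2752 with the empty vector (0.02, but as low as -0.01 under lowess centring and quantile normalization). The dimmer 224563_at gave 338 and 332 in the same order (0.02). The mean over the 3 probe sets, centred anew, was -0.03. WASF3, known for its part in the invasion of carcinoma cells, had 1287 with let-7i and 1069 with the empty vector in its 1 probe set, 204042_at. Its log2 ratio of 0.26 (1.20-fold higher) was 1.27 times the probe SD and lay between 0.25 and 0.28 in all 8 settings. The log2 ratio of WASF3 minus that of the brightest WASF2 probe set was 0.46, beside a probe SD of 0.26 for such a difference.

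CYFIP1, the subunit that RAC binds, was close to equal, with 4473 with let-7i and 4325 with the empty vector in 208923_at and a log2 ratio of 0.04. This was 0.29 times the probe SD, and CYFIP1 was the member whose brightest probe set had the smallest ratio. ABI1, an adaptor that links the complex to ABL kinases, was higher with let-7i in both measured probe sets. The brighter, 209027_s_at, gave 1930 with let-7i and 1760 with the empty vector (log2 ratio 0.13). The other, 209028_s_at, gave 1212 and 952 in the same order, a log2 ratio of 0.34 and 1.66 times the probe SD. The remaining ABI1 probe set, 1559890_a_at, was below the floor at 24.5 and 35.8 in that order. BRK1, the small subunit that starts assembly of the complex, was slightly lower with let-7i. Its bright probe set 224575_at gave 4559 with let-7i and 5150 with the empty vector (log2 ratio -0.18, 1.16 times the probe SD), and the dim 224023_s_at gave 194 and 200 in the same order (-0.05). The dim one was above 0 under lowess centring and quantile normalization, at most 0.05, while the bright one was negative in all 8 settings.

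NCKAP1, which holds CYFIP in the complex, was the gene whose probe sets lay furthest apart. The bright 207738_s_at gave 4478 with let-7i and 4183 with the empty vector, a log2 ratio of 0.09. The dim 217465_at gave 113 with let-7i and 235 with the empty vector, a log2 ratio of -1.07 or 2.09-fold lower, which was 3.17 times the probe SD at that signal. It was the 1 member probe set past 2-fold, in a signal range where 1.91% of the probe sets measured on both arrays were at least 2-fold lower. The log2 ratio lay on the threshold, and the 2-fold call was lost under lowess centring (-0.97) and under quantile normalization (-0.96). It was also lost when the floor was raised to the 65th percentile, above its let-7i signal, which left a bound of -0.15. The bright probe set has an ID of the kind that can match several transcripts. Without such probe sets NCKAP1 is represented by the dim one, and its log2 ratio is -1.05. Which stretch of the transcript each probe set reads was not examined here.

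**Figure D2:**
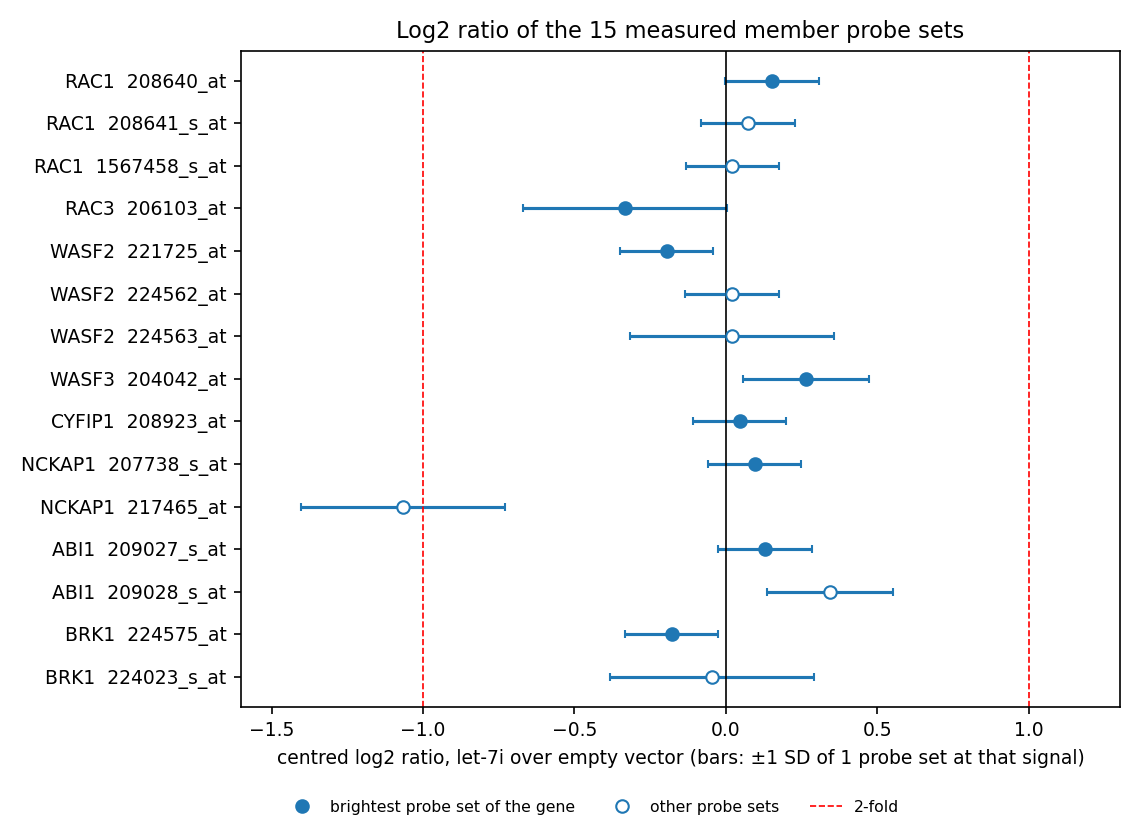
Centred log2 ratio (let-7i over empty vector, x axis) of the 15 member probe sets measured on both arrays, with bars of 1 probe SD at that signal. Of the 15, 14 lie between -0.33 and 0.34, and 217465_at of NCKAP1 lies at -1.07, just past the dashed 2-fold line.

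Of the 15 measured probe sets, 5 had a log2 ratio larger in size than 1 probe SD and 1 had one larger than 2 probe SDs. Over all 25566 probe sets measured on both arrays these shares were 40.8% and 13%. Of the 15 ratios 10 were above 0 and 5 below, with a median of 0.02, against -0.03 over all of them. Among the 5 genes with at least 2 measured probe sets, the probe sets pointed one way in 3 (RAC1, ABI1 and BRK1) and both ways in 2 (WASF2 and NCKAP1). Of the 6 measured WAVE complex genes 4 were higher and 2 lower in their brightest probe set, with log2 ratios from -0.20 to 0.26.

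**Figure D3:**
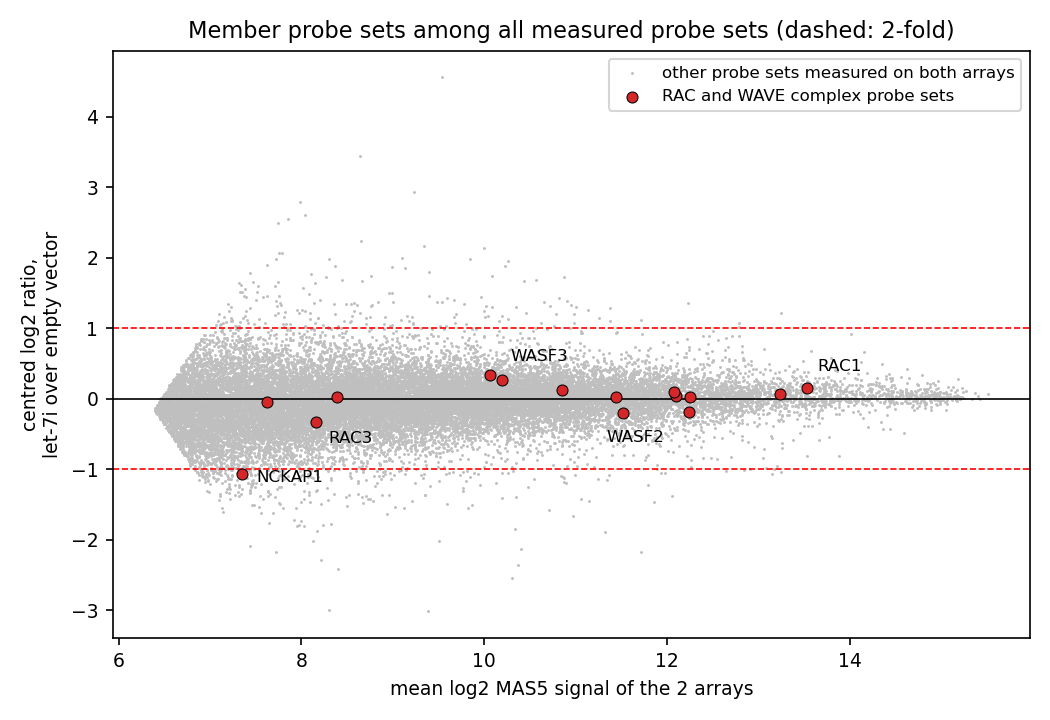
Centred log2 ratio (let-7i over empty vector, y axis) against the mean log2 signal of the 2 arrays (x axis) for the 25566 probe sets measured on both arrays, with the member probe sets in red. Grey points spread more widely at dim signals, where the NCKAP1 probe set at -1.07 lies, and RAC1 sits at the bright end near 0.

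The genes around the complex were read from lists of RAC regulators, RAC effectors and actin factors. Among the paralogues of its subunits, CYFIP2 (10.3 with let-7i and 17.8 with the empty vector) and the haematopoietic NCKAP1L (52.4 and 18.6) were below the floor on both arrays. ABI3 had dim signals of 99.6 with let-7i and 162 with the empty vector, a log2 ratio of -0.71.

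The ARP2/3 complex, which the WASF tail activates, was mostly slightly higher with let-7i. Of its 9 measured genes 8 were higher and 1 lower, while 48.7% of all genes and 57.3% of those in the brightest bin, which held 8 of the 9, were higher. The median log2 ratio was 0.19 for the complex, 0.03 for the brightest bin and -0.01 for all genes, and 0 of 9 were past 2-fold (2.43% of all genes). ARPC2, a core subunit that contacts the mother filament, had 14465 with let-7i and 11708 with the empty vector (log2 ratio 0.30), and its 3 probe sets ran from 0.29 to 0.84. ARPC3 had 11277 with let-7i and 9617 with the empty vector (0.23), and ARPC1B had 3121 and 2637 in the same order (0.24). The log2 ratio was 0.19 for ARPC1A, 0.08 for ARPC4 and 0.31 for ACTR3B, a variant of the actin-related protein ACTR3. ACTR3 itself had 12635 with let-7i and 12327 with the empty vector (0.03), with 5 probe sets from -0.20 to 0.19. ARPC5 (0.00) and ARPC5L (-0.01) were nearly equal. ACTR3 and ARPC5 were below 0 after lowess centring, which left 6 of 9 higher and a median of 0.15.

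Upstream of RAC, 14 of 18 listed exchange factors and ELMO proteins were above the floor, 8 of them higher and 6 lower (5 and 9 with the mean over probe sets). The 1 past 2-fold (of 14, against 2.43% of all genes) was TIAM2, a RAC exchange factor, with 140 on the let-7i array and 333 on the empty vector array (log2 ratio -1.25). Its second measured probe set pointed the other way, with 134 and 112 in the same order (0.25). VAV3, an exchange factor driven by receptor kinases, had 1719 with let-7i and 2394 with the empty vector (-0.48), and its 3 probe sets were all lower, from -0.84 to -0.48. Its relative VAV2 had 992 and 811 in the same order (0.29), with 0.67 in the other measured probe set. PREX1, which responds to phosphoinositides and G protein subunits, had 320 with let-7i and 216 with the empty vector (0.56), but its other probe set gave a bound of -0.98. Among GTPase-activating proteins and GDIs (dissociation inhibitors), which return RAC to its inactive state or hold it in the cytosol, 13 of 16 were above the floor. The list split into 7 higher and 6 lower, and 0 of 13 were past 2-fold (2.43% of all genes). Its median log2 ratio was 0.21, against -0.01 for all genes. The median was -0.04 with a floor at the 25th percentile, -0.06 with one at the 65th percentile and -0.26 without shared probe sets, so its direction was not settled. The log2 ratio was -0.72 for SRGAP2, 0.51 for CHN1, 0.47 for ARHGDIG and 0.34 for ARHGAP24, and of these SRGAP2 and ARHGAP24 had a second measured probe set, at -0.08 and -0.39.

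Other RAC effectors were 6 higher and 4 lower of 10 above the floor (5 and 5 under lowess centring). PARD6A, a polarity adaptor, was below the floor with let-7i (72.8) and had 216 with the empty vector, at least 2.73-fold lower, in its 1 probe set. Its relative PARD6B had 1651 with let-7i and 2495 with the empty vector (log2 ratio -0.60), and PARD6G had 196 and 104 in the same order (0.91). BAIAP2, the adaptor that links RAC to the WASF proteins, had 467 with let-7i and 712 with the empty vector (-0.61), while its other measured probe sets gave 0.06 and -0.16. ARFIP2, which binds RAC and ARF GTPases, had a log2 ratio of 0.16.

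Of 14 other ARP2/3 activators, stabilisers and inhibitors above the floor, 5 had a positive and 9 a negative log2 ratio, and the median was -0.05. HCLS1, the blood cell relative of cortactin, was below the floor with let-7i (30.6) and had 432 with the empty vector, at least 5.44-fold lower. It had no other probe set to set beside this one. CORO1C, a coronin of migrating cells, had 7894 with let-7i and 5421 with the empty vector (log2 ratio 0.54), and its other probe set gave 0.50. The log2 ratio was 0.38 for JMY and 0.32 for WHAMM, both activators of ARP2/3, and -0.48 for WASHC3, a subunit of the endosomal WASH complex.

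Lamellipodial actin regulators were evenly split, with 12 higher and 12 lower of 24 and a median log2 ratio of 0.00 (8 higher and 16 lower after lowess centring). DIAPH2, a formin, was below the floor with let-7i (39.7) and had 190 with the empty vector, at least 2.39-fold lower, and a second probe set gave a bound of -1.28. LIMK1, the kinase that inactivates cofilin, had 218 with let-7i and 333 with the empty vector (-0.62), VASP, an actin polymerase, had 516 and 707 in the same order (-0.46), and the cofilin phosphatase SSH3 had a log2 ratio of -0.34. TWF1, a twinfilin, had 0.31, with 3 probe sets from -0.08 to 0.31.

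The bounds of PARD6A, HCLS1 and DIAPH2 and the ratio of TIAM2 rest on dim signals. With a floor at the 65th percentile TIAM2 had a bound of -0.65, HCLS1 of -1.03, SRGAP2 of -0.17 and PREX1 of 0.47, while PARD6A, PARD6G, DIAPH2 and ABI3 had no ratio. ARHGDIG then had a bound of -0.10, which leaves its direction open.

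**Figure D4:**
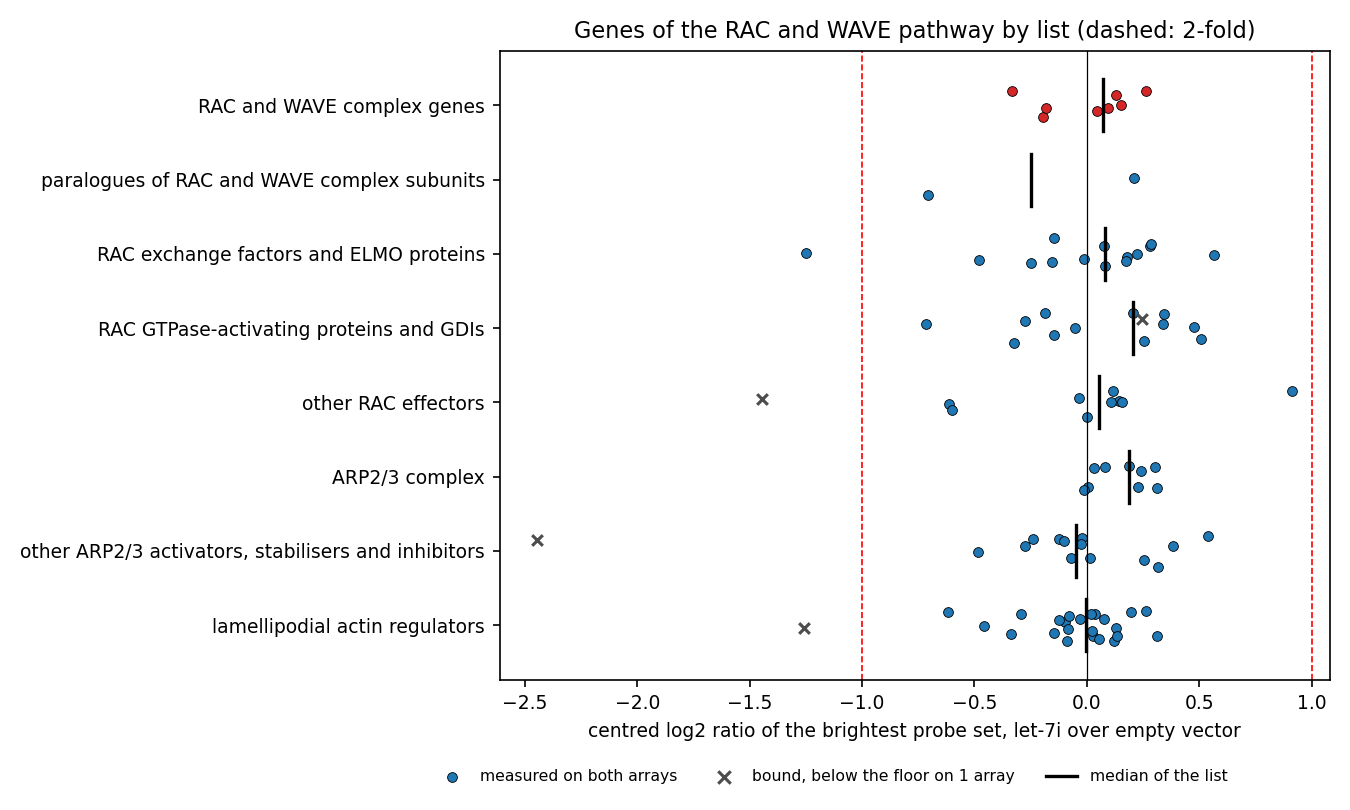
Centred log2 ratio (let-7i over empty vector, x axis) of the brightest probe set of each gene above the floor, by list, with bounds as crosses and the median of each list as a bar. The RAC and WAVE genes (red) lie between -0.33 and 0.26, and the points past the dashed 2-fold lines are TIAM2, PARD6A, HCLS1 and DIAPH2.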

How the data were processed

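Both OECM1 cultures gave total RNA that was turned into biotinylated cRNA by Affymetrix's standard method, per the labels' protocols. The deposited files hold a signal intensity for each probe set of each array, computed by the authors with MAS5 according to the submitters' processing notes (version and settings not given in the sources used here). After trimming 2% from each end, the mean was 500.1 on both arrays. Because MAS5 takes mismatch signal away, low values are noisy, and precision is limited by the number of arrays.

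Gene symbols are those of the platform annotation. Of 54675 probe sets, 41091 carried 1 symbol and were used for the genes, 1801 carried several and 11777 were not listed. The other 6 carried 1 symbol but are control probe sets, of which there are 62 in all, and were left out. Shares and medians over all probe sets, unlike those over genes, also take in probe sets with several symbols or none, apart from the controls. All symbols of the 41037 probe sets whose IDs a RefSeq table held were unchanged there. Signals under the floor were raised to the floor, so the ratio is then a bound, and no ratio was formed where both arrays were under it. For 178 genes the bound left the direction open. The centring shift was 0.0036 on the log2 scale. A gene was represented by the probe set of highest mean log2 signal, and calls were by size alone. The probe SD came from 5807 pairs of a gene's 2 brightest probe sets above both floors, in 4 bins of signal, the SD of their difference divided by the square root of 2. Named genes outside the complex are all listed paralogues and ARP2/3 genes, and of each other list the 4 largest ratios measured on both arrays plus all past 2-fold. For 1 further gene list no result is reported here. Members and lists were chosen with earlier results of these data known. Lowess came from statsmodels 0.14.6, figures from Matplotlib 3.10.9, and tables from pandas 2.3.3 with NumPy 2.4.6 under Python 3.11.15.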

Additional observations from a re-analysis of the deposited data

How the results depend on the processing

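The ratios were recomputed without centring, with lowess centring (3 iterations at a fraction of 0.3), after quantile normalization, with the floor moved to the 25th or the 65th percentile, without shared probe sets (IDs ending in _s_at or _x_at), with the mean over probe sets, and at thresholds of 1.5-fold and 3-fold. By brightest probe set, or by the mean where that was the setting, RAC1, WASF3, CYFIP1 and ABI1 were higher in every setting that gave a value. RAC3, WASF2 and BRK1 were lower in the same sense. Most settings rescale the same probe set, so their agreement is not independent. Other probe sets of RAC1, WASF2 and BRK1 did not all keep that direction, as given above. ABI1 had no value without shared probe sets, since its measured ones are all shared. NCKAP1 was lower without shared probe sets (-1.05, the 1 member gene then past 2-fold, and the member median -0.16) and with the mean over probe sets (-0.47). The 1 member probe set past 2-fold became 0 with lowess centring, quantile normalization, the 65th percentile floor and 3-fold. Among all genes, 130 higher and 169 lower became 654 and 1113 with the 25th percentile floor and 62 and 71 with the 65th. They became 514 and 728 at 1.5-fold and 34 and 24 at 3-fold. Lowess centring gave 154 higher and 145 lower, and quantile normalization gave 153 and 145. Leaving out shared probe sets gave 115 higher and 136 lower, and the mean over probe sets gave 109 and 140.

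With the floor at the median, 10 other RAC effectors, 14 exchange factors and ELMO proteins and 24 lamellipodial regulators were above it. So were 13 GTPase-activating proteins and GDIs and 2 paralogues. Of all genes 2.43% were past 2-fold and 10.1% past 1.5-fold. The all-gene counts given above also moved with the floor and the threshold. Past 2-fold, the other RAC effectors numbered 1, but 2 with lowess centring and with quantile normalization. They numbered 0 with the 65th percentile floor and at 3-fold, and 4 at 1.5-fold. The exchange factors numbered 1, but 2 with the 25th percentile floor and 0 with the 65th, without shared probe sets, with the mean over probe sets and at 3-fold. TIAM2 turned to 0.27 without shared probe sets, since its remaining measured probe set points the other way. Lamellipodial regulators numbered 1, but 0 with the 65th percentile floor and at 3-fold, and 2 at 1.5-fold. The paralogues had 0, but 1 with the 25th percentile floor and at 1.5-fold, and the GTPase-activating proteins 0, but 1 at 1.5-fold. Where no cause is given, it was not tested. No paired analysis was possible because each group had 1 array, and no replicate could be left out.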
